A study of Mus musculus with 8 samples.

Results

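The genes described are the NOTCH targets *Hey1*, *Hey2*, *Heyl*, *Hes1* and *Nrarp*, which were chosen by name and are 5 of the 14608 genes in the expression table. All 5 were measured in all 8 RNA-seq libraries of mouse outflow tract (OFT), the vessel-forming end of the embryonic heart, at embryonic day 11.5. Of these, 4 libraries are labelled control and titled WT, with no alleles or strain named, and 4 are labelled Mib1V943F/+ Gata6STOP/+. The mutant embryos carry 1 missense allele of *Mib1*, in a RING domain of the MIB1 protein, and 1 null allele of *Gata6* on the other copy of the chromosome. Both alleles are germline and are present in every cell type of the OFT. No library carries 1 of the alleles alone, so the part of each allele in any difference cannot be told apart. Each library pools tissue, and the number of embryos in a pool differs between the series description, which gives 3 individuals, and the methods of the study. Nothing states that the libraries of a group come from separate litters, so the p-values measure the spread between these pools.

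NOTCH is a receptor that is cleaved when a DELTA or JAGGED ligand on a neighbouring cell binds it. MIB1 is the ubiquitin ligase that lets the ligand be pulled into the sending cell, a step that cleavage needs. The freed NOTCH fragment joins RBPJ and MAML proteins on DNA and switches on the *Hey* and *Hes* genes, which encode bHLH-Orange repressors, and *Nrarp*, which encodes an ankyrin repeat protein that dampens the same nuclear complex. In the developing heart these targets are known from the endocardium, the cushions and the smooth muscle of the great vessels. The comparison of genotypes therefore asks how much of this direct output of the pathway is present when 1 *Mib1* allele is altered and 1 *Gata6* allele is lost.

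The genes lie on 5 different chromosomes, in coordinates of GRCm38, and none shares a chromosome with *Mib1* and *Gata6*. *Hey1* lies on chromosome 3 from 8663359 to 8667256 and *Hey2* on chromosome 10 from 30832359 to 30842801, both on the minus strand and both with 5 exons in the coding transcript. *Heyl* lies on chromosome 4 from 123233556 to 123249875 on the plus strand, also with 5 exons, and 3245 of its 4537 transcript bases are 3′ UTR. *Hes1*, on chromosome 16 from 30064384 to 30067796, has 4 exons, and *Nrarp*, on chromosome 2 from 25180758 to 25183339, has 1 exon. The protein families differ at the C terminus, and the coding sequence shows it. In HES1 the tetrapeptide there binds the Groucho/TLE corepressors, while HEY proteins carry a diverged version of it. The last 60 coding bases of *Hey2*, *Heyl* and *Hes1* are printed below with the stop codon, all in the last exon, and the capitals mark the 4 codons of the tetrapeptide.
Hey2 (chr10:30833736-30833795, minus strand): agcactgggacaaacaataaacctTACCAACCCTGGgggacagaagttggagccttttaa
Heyl (chr4:123246571-123246630, plus strand): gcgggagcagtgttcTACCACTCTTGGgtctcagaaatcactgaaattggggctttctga
Hes1 (chr16:30067369-30067428, plus strand): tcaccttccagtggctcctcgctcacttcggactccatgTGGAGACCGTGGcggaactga
The first of the 4 codons encodes tyrosine in *Hey2* and *Heyl* and tryptophan in *Hes1*, and the last encodes tryptophan in all 3. Between the tetrapeptide and the stop lie 7 codons in *Hey2*, 10 in *Heyl* and 2 in *Hes1*.

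RBPJ binds DNA at the letters GTGGGAA. On the opposite strand these read as TTCCCAC. The RefSeq promoter windows of *Hey2* and *Nrarp* (GRCm38.p6), each of 300 bases, were searched for these letters on both strands. They are shown because the motif count differs between them, and they are the ones of the 5 found in the promoter table. Capitals mark the matches.
Hey2 (chr10:30842781-30843033, minus strand): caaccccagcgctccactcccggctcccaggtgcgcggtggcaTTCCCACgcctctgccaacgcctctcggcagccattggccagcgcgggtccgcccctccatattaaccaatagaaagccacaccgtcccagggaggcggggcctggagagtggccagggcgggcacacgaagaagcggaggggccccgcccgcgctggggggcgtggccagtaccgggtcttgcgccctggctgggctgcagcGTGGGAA
Nrarp (chr2:25180508-25180760, plus strand): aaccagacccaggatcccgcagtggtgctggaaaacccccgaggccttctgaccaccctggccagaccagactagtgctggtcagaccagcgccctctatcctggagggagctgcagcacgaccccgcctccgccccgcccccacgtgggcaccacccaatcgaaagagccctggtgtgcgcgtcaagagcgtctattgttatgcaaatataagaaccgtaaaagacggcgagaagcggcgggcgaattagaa
The *Hey2* window held 2 matches, which start at -207 and at -4 from the start site, and the *Nrarp* window held 0. Of 32851 promoter windows of the same length, 6.38% held at least 1 match and 0.256% held 2 or more. A match describes letters only, and a window without one says nothing of RBPJ binding.

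Depth and agreement between libraries set the precision of the values. The reads on listed genes ran from 10669420 to 28212669 in the control libraries and from 21064242 to 30469165 in the mutant ones, and between 280 and 3055 reads lay behind each value of the 5 genes. Mutant replicate 2 stood apart, with a chi-square per gene of 30.8 to 33.7 against the other mutant libraries, where all other pairs within a group gave 6.67 to 18.5. The genes of the genotype did not separate the groups: *Gata6* was at 262 ± 18.5 CPM, the normalised read count scaled to library size, in control and 249 ± 36.1 in mutant libraries (SD, n = 4), and *Mib1* at 122 ± 15.6 and 128 ± 6.62. The RNA level of neither gene checks the labels, so every direction rests on the labels. All markers of 7 of the 10 cell type lists were in the table, while 7 of 10 pharyngeal endoderm and epithelium markers (among them *Epcam* and *Cdh1*), 3 of 12 neural crest and 2 of 10 second heart field markers were not. No measured marker was at 0 in any library, in a table whose genes all reach 1 CPM in at least 4 libraries.

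*Heyl*, the *Hey* family gene best known from vascular smooth muscle, had the largest difference of the 5. It was measured at 26.3, 31.2, 31.3 and 31.5 CPM in the control libraries, here and below in the order of replicates 1 to 4, and the mutant libraries held 34.5, 37.6, 41.3 and 39.3 CPM. Every mutant library lay above every control library, with means of 30.1 ± 2.52 and 38.2 ± 2.90 CPM (SD, n = 4), 26.9% apart. The log2 fold change was 0.34 with an SE of 0.09 and a 95% confidence interval of 0.15 to 0.53. By limma, across all genes, the unadjusted p was 0.00197, rank 120 of 14608, and the adjusted p was 0.234, past no threshold. The exact two-sided permutation test over 70 relabellings gave 0.0286, the smallest p it can give. *Heyl* was the 1 gene of the 5 whose groups did not overlap, against 7.10% of all genes in either direction (3.20% with mutant above control and 3.90% below). It was also the 1 gene of the 5 with an unadjusted limma p under 0.05, against 12.1% of all genes in either direction and 5.45% with mutant above control. At the adjusted threshold of 0.05 limma called 0 of the 5 and 0% of all genes, with a smallest adjusted p of 0.124.

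The call for *Heyl* depended on the count test. On the recovered whole reads its adjusted p was 0.0331 by DESeq2, which called 1.33% of all genes, 0.0568 by the edgeR likelihood ratio test, which called 0.732%, and 0.227 by the edgeR quasi-likelihood test, which called 0%. The log2 fold change was 0.35 in all 3. Leaving out any 1 library kept it between 0.28 and 0.39, lowest without control replicate 1, the lowest control. Since each library is bulk tissue, more cells that transcribe *Heyl* and more *Heyl* RNA per cell cannot be told apart.

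*Hey1*, whose protein acts with HEY2 in endocardium and cushion formation, had a wider spread. The control libraries held 37.0, 43.4, 37.1 and 38.5 CPM and the mutant libraries 53.1, 42.1, 48.4 and 38.6 CPM. Mutant replicates 1 and 3 lay above all controls, while mutant replicates 2 and 4 lay within their range. The means were 39.0 ± 3.02 and 45.5 ± 6.47 CPM (SD, n = 4), a log2 fold change of 0.21 (SE 0.10) with an interval of -0.01 to 0.43. The limma p was 0.0575 and the adjusted p 0.428, and the exact permutation p was 0.114. Leaving out a single library gave 0.14 to 0.29, lowest without mutant replicate 1.

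*Hey2*, a repressor known from the ventricular myocardium, the endocardium and arterial vessels, was the most abundant of the 5, also per length. It was at 93.0, 92.2, 96.3 and 99.0 CPM in control libraries and at 90.0, 112.4, 95.3 and 98.0 CPM in mutant libraries. Only mutant replicate 2, the library that stood apart, lay above the control range, and mutant replicate 1 lay just below it. The means were 95.1 ± 3.16 and 98.9 ± 9.59 CPM (SD, n = 4). The log2 fold change was 0.05 (SE 0.07), with an interval of -0.11 to 0.21, an adjusted limma p of 0.790 and an exact permutation p of 0.629. Without mutant replicate 2 it was -0.01, so its sign rests on that library.

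*Hes1*, a repressor used by NOTCH in many progenitor cells and also reached by other pathways, showed the widest spread for its level. Control libraries held 34.8, 42.9, 35.2 and 36.5 CPM and mutant libraries 41.6, 28.7, 39.5 and 35.3 CPM. The mutant libraries lay on both sides of most controls, with mutant replicate 2 the lowest of all 8. The means were 37.3 ± 3.75 and 36.3 ± 5.69 CPM (SD, n = 4), a log2 fold change of -0.05 (SE 0.11) with an interval of -0.30 to 0.20. The adjusted limma p was 0.874 and the exact permutation p 0.743. The sign changed without mutant replicate 2, to 0.06, and without control replicate 2, to 0.02.

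*Nrarp*, the feedback inhibitor, had overlapping groups. It was at 22.5, 26.6, 24.0 and 22.9 CPM in control libraries and at 25.5, 26.5, 28.4 and 25.9 CPM in mutant libraries. All mutant libraries lay above 3 of the 4 controls, and control replicate 2, the shallowest library, lay among them. The means were 24.0 ± 1.83 and 26.6 ± 1.29 CPM (SD, n = 4), a log2 fold change of 0.15 (SE 0.08) with an interval of -0.03 to 0.32. The limma p was 0.0955, the adjusted p 0.474 and the exact permutation p 0.114.

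**Figure D1:**
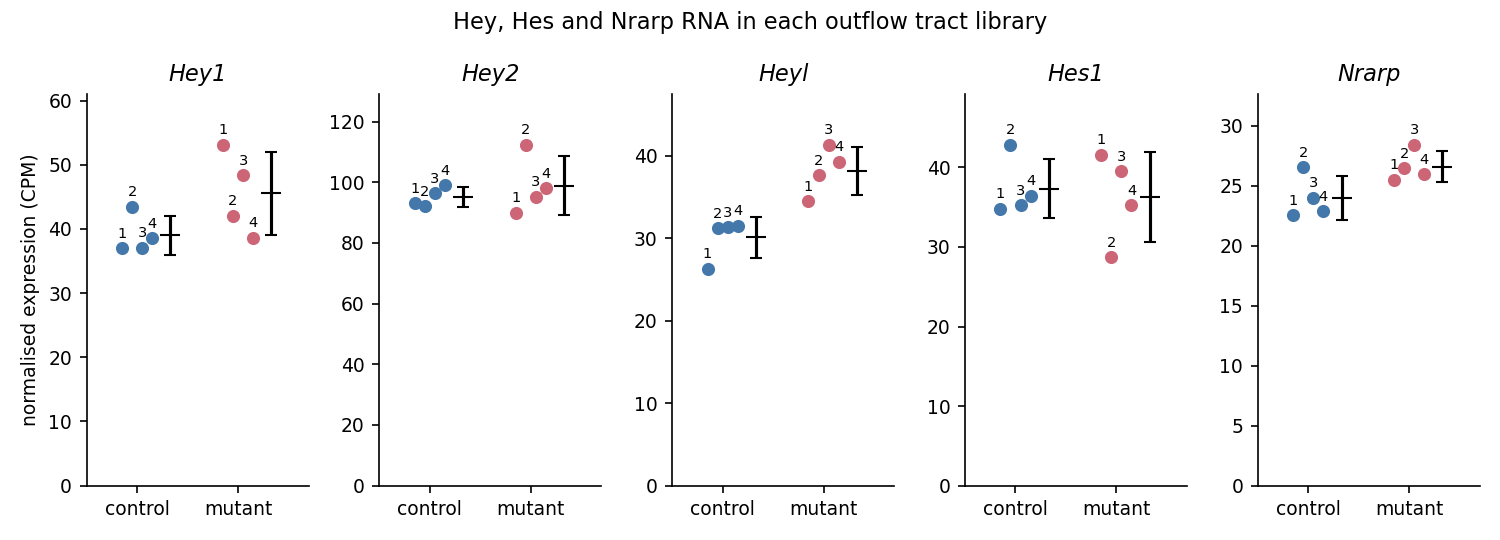
Normalised expression in CPM on the vertical axes, each from 0, for the 5 genes in the 4 control (blue) and 4 mutant (red) libraries, with the replicate number above each point and the mean ± SD in black. The groups overlap for *Hey1*, *Hey2*, *Hes1* and *Nrarp*, and the 4 mutant points of *Heyl*, from 34.5 to 41.3, lie above its 4 control points, from 26.3 to 31.5.

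Side by side, the median log2 fold change of the 5 genes was 0.15, against 0.00105 for all genes, and 4 of 5 values were positive. A positive sign was common among all genes, whose median also lay just above 0. The sign of *Hey2*, 1 of the 4, changed without mutant replicate 2. None was past the adjusted threshold by limma. Taken 1 gene at a time on the deposited scaling, the 95% limma intervals reached down to 0.926 of the control level for *Hey2*. The lower ends were 0.813 for *Hes1*, 0.979 for *Nrarp* and 0.995 for *Hey1*. These ends depend on the scaling: with the GC trend of each library removed, the log2 fold change of *Hey2* was lower, at -0.07.

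**Figure D2:**
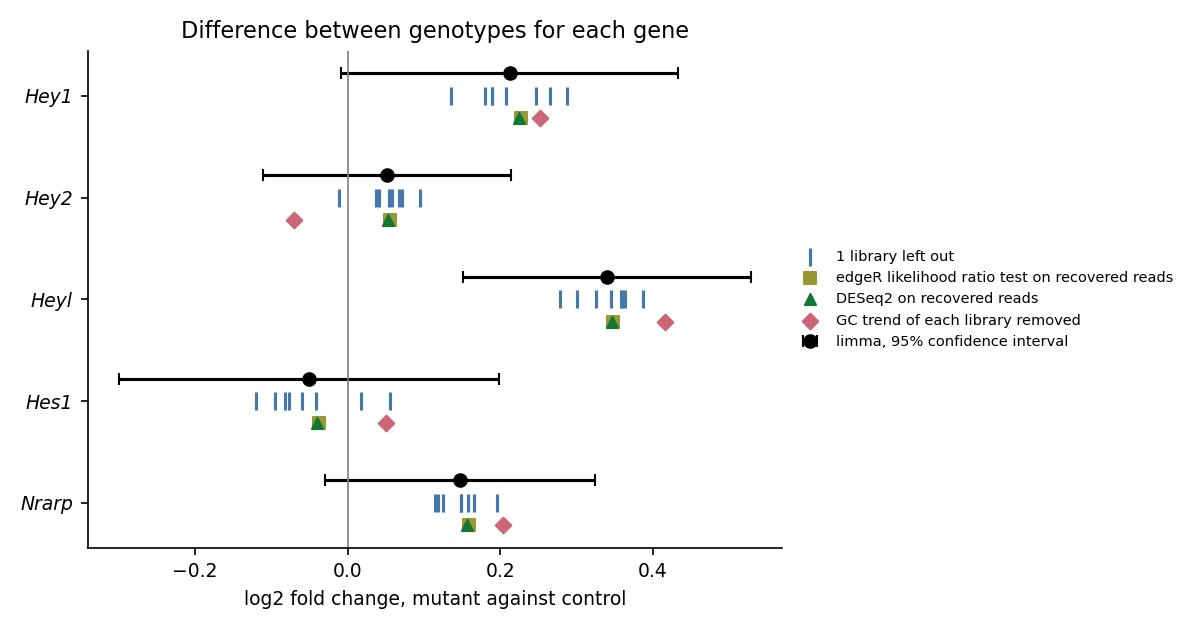
Log2 fold change of mutant against control for each gene: limma estimate with its 95% confidence interval in black, the estimates with 1 library left out as blue ticks, edgeR and DESeq2 on recovered reads as a square and a triangle, and the estimate after removal of the GC trend as a diamond. The interval of *Heyl*, 0.15 to 0.53, is the one of the 5 that does not reach 0, and diamonds and ticks cross 0 for *Hey2* and *Hes1*.

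Levels can be compared between genes only per length, as CPM per kilobase of the coding transcript. On that scale the order was the same in 8 of 8 libraries, with *Hey2* first, then *Hes1*, *Hey1*, *Nrarp* and *Heyl*. The control means were 37.3 ± 1.24, 25.4 ± 2.56, 16.1 ± 1.25, 9.29 ± 0.708 and 6.63 ± 0.555 CPM per kilobase in that order, and the mutant means were 38.8 ± 3.76, 24.7 ± 3.88, 18.8 ± 2.67, 10.3 ± 0.499 and 8.41 ± 0.639 (SD, n = 4). Among the mutant libraries the ranges of *Hes1*, 19.5 to 28.3, and *Hey1*, 15.9 to 21.9, overlapped. All other neighbours in the order were apart in both groups. As a share of the 3 *Hey* genes on this scale, *Heyl* took 11.03% ± 0.647 in control and 12.8% ± 1.11 in mutant libraries (SD, n = 4), and its ranges, 10.1% to 11.5% and 11.7% to 13.7%, did not overlap (exact permutation p = 0.0286, unadjusted). The share of *Hey2* was 62.2% ± 1.91 and 58.7% ± 4.07 (exact permutation p = 0.229) and that of *Hey1* 26.8% ± 1.79 and 28.5% ± 4.25 (exact permutation p = 0.600).

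The ratio of 1 gene to another within a library does not depend on the scaling of the library. Of 10 such ratios, *Hey1* over *Hes1* did not overlap between the groups, with a log2 ratio in CPM of 0.02 to 0.09 in control and 0.13 to 0.54 in mutant libraries. The difference was 0.26, with an exact permutation p of 0.0286 before and 0.190 after adjustment over the 10 ratios, and without any 1 control library the unadjusted p was 0.0571. *Heyl* over *Hes1* differed by 0.39 (exact permutation p = 0.0857), *Hey2* over *Heyl* by -0.29 (exact permutation p = 0.0571) and *Heyl* over *Nrarp* by 0.19 (exact permutation p = 0.0571). No ratio was past 0.05 after adjustment.

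A further fit removed the trend of each library with the base composition (GC content) of transcripts. With the GC trend of each library removed, a step chosen after seeing the data, the log2 fold change was 0.42 for *Heyl* (55.2% GC), with a limma p of 0.000194 and an adjusted p of 0.115. It was 0.25 for *Hey1* (52.6% GC), with an unadjusted limma p of 0.0175. For *Nrarp* (54.5% GC) it was 0.20, with an unadjusted limma p of 0.0100. On this scale 3 of the 5 were under 0.05 before adjustment. So were 1656 of all 14608 genes, 711 of them higher in mutant libraries. For *Hey2*, with 45.9% GC the lowest of the 5, the sign turned to -0.07, and for *Hes1* (50.7% GC) it turned to 0.05. No gene of the 5 passed the adjusted threshold on this scale either. The GC percents given are those of the coding transcript, while the trend was fitted on the mean GC of all annotated transcripts of a gene.

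Upstream of the 5 genes, no gene of the pathway passed the adjusted threshold by limma. Of 62 measured genes for ligands, receptors and the nuclear complex, 5 were higher and 5 lower in mutant libraries at an unadjusted limma p under 0.05, which is 16.1% of them against 12.1% of all genes. The median log2 fold change of the 62 was -0.03. The share lay near that of all genes. The count was 3 without control replicate 2, 4 without control replicate 3, 4 with a replicate block and 6 with the GC trend removed. In these fits the count over all genes also fell, from 1763 to 1121, 1172, 1304 and 1656 in that order. Among 11 of 14 ligand genes that were measured, *Jag1*, a ligand of the cushions and of smooth muscle, had the smallest p. It was at 102, 89.0, 93.9 and 92.7 CPM in control libraries and at 121, 118, 111 and 104 CPM in mutant libraries. The groups did not overlap, and the log2 fold change was 0.27 (SE 0.07), with an adjusted limma p of 0.240 and, like *Heyl*, an adjusted p under 0.05 by DESeq2, at 0.0420. *Dll4*, the main ligand of arterial endothelium and early endocardium, was at 12.7 ± 1.97 and 10.3 ± 0.930 CPM (SD, n = 4), a log2 fold change of -0.28 with overlapping groups. *Neurl1b*, a second kind of ligand ubiquitin ligase, and *Epn1*, an endocytic adaptor, had log2 fold changes of -0.23 and -0.18, which were -0.07 and -0.05 with the GC trend removed.

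All 27 genes for receptors and their processing were measured, and the receptors themselves differed little. *Notch1* was at 133 ± 8.25 and 126 ± 19.1 CPM (SD, n = 4), a log2 fold change of -0.09, and the values for *Notch2*, *Notch3* and *Notch4* lay between 0.00 and 0.07. Past the unadjusted threshold were *Poglut1*, which adds glucose to NOTCH (0.22), *Itch*, a ligase that marks NOTCH for degradation (0.23), and *Ncstn*, a subunit of the gamma-secretase that cleaves NOTCH (-0.15). Of 24 measured genes of the nuclear complex, *Rbpj* was at 90.5, 77.5, 84.1 and 93.0 CPM in control libraries and at 94.0, 103, 96.1 and 95.6 CPM in mutant libraries. The groups of *Rbpj* did not overlap, though its highest control library, at 93.0 CPM, lay close below its lowest mutant library, at 94.0 CPM. Its log2 fold change was 0.17, with an adjusted limma p of 0.389. *Hdac2*, a histone deacetylase of corepressor complexes, had 0.26 and *Tle5*, a short TLE protein, -0.28, and the adjusted limma p was 0.270 and 0.331. With the GC trend removed the log2 fold changes were smaller, at 0.07 for *Rbpj*, 0.13 for *Hdac2*, -0.18 for *Tle5* and 0.13 for *Itch*, and 0.24 for *Jag1*.

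Relatives and targets of the 5 genes were examined as 3 further lists. Of 8 bHLH-Orange relatives 4 were measured (*Hes6*, *Hes7*, *Bhlhe40* and *Bhlhe41*), with a median log2 fold change of -0.13 and 0 genes at an unadjusted p under 0.05. All 13 other NOTCH-responsive genes were measured, among them *Efnb2* (0.16), *Snai1* (0.08) and *Nrg1* (0.20). Their median was 0.08, against 0.00105 for all genes, with 10 positive values. Likewise 0 of the 13 genes had an unadjusted p under 0.05. Of 6 cardiac genes that HEY factors are known to repress, 3 had an unadjusted limma p under 0.05, all lower in mutant libraries. Of all genes, 6.62% were lower at that threshold. The median of the 6 was -0.38. *Myl4*, an atrial myosin light chain, was at 1388 ± 115 and 1109 ± 55.3 CPM (SD, n = 4), with no overlap. Its log2 fold change was -0.32, with an adjusted limma p of 0.229. The adjusted p was 0.0426 by the edgeR likelihood ratio test and 0.00492 by DESeq2. *Nppa*, the atrial natriuretic peptide gene, was at 157, 99.1, 122 and 65.9 CPM in control libraries and at 61.9, 5.67, 8.68 and 108.7 CPM in mutant libraries. Mutant replicates 2 and 3 were far below all other libraries, while mutant replicate 4 lay within the control range, and the log2 fold change of -2.09 had an adjusted limma p of 0.331. The edgeR likelihood ratio fit gave -1.27 (adjusted p = 0.457), so the size depends on the method. *Gja5*, a connexin of atrial muscle and arteries, had -0.50, with an adjusted limma p of 0.364.

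**Figure D3:**
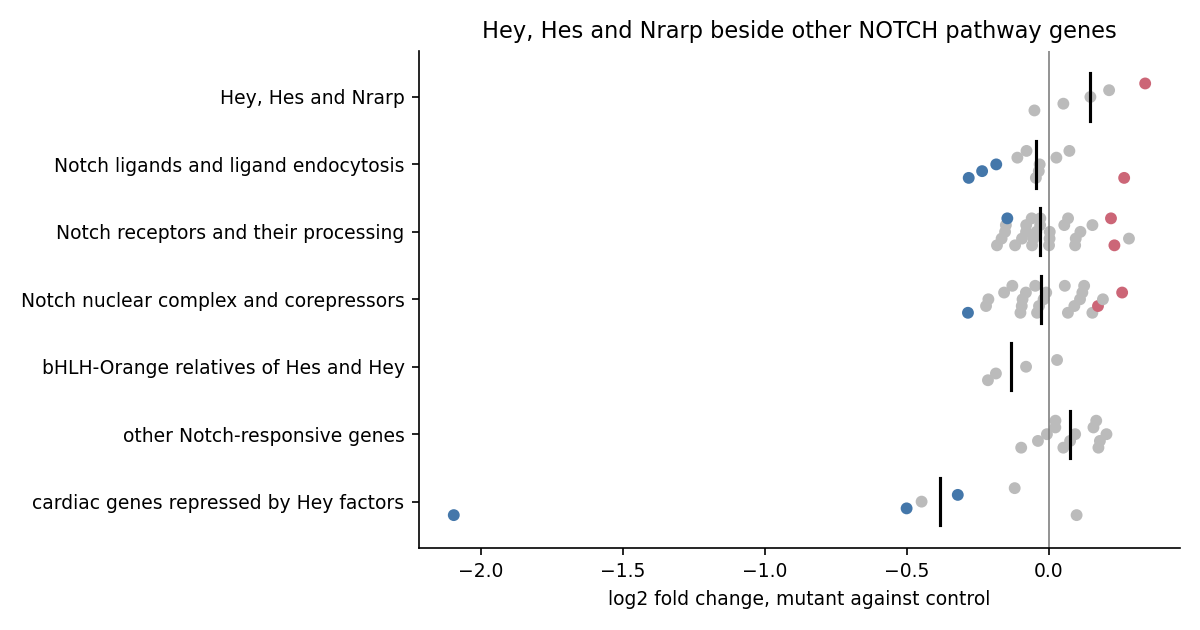
Log2 fold change of mutant against control on the horizontal axis, 1 point per gene, for the 5 genes and 6 lists of the pathway, with the list median as a black bar. Red and blue mark genes higher or lower at an unadjusted limma p under 0.05, of which 1 of the 5 genes, *Heyl*, is red, and the leftmost point is *Nppa* at -2.09.

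Markers of cell types were set beside these values. At an unadjusted limma p under 0.05, 5.45% of all genes were higher and 6.62% lower in mutant libraries. Without overlap 3.90% of all genes were lower, and 0.732% passed the adjusted threshold by the edgeR likelihood ratio test. All 14 cardiomyocyte markers were lower in mutant libraries at an unadjusted limma p under 0.05, 12 of them without overlap and 8 past the adjusted threshold by the edgeR likelihood ratio test, with a median log2 fold change of -0.35. Their summed level was 27780 to 32690 CPM in control and 21990 to 25680 CPM in mutant libraries. The 3 *Hey*-repressed genes named above are also expressed in heart muscle, and the part of the muscle markers in their values and in those of *Heyl* and *Hey2* was not tested. The summed level of 18 markers of endocardium and endothelium overlapped, at 1338 to 1620 and 1341 to 1488 CPM, with 0 higher and 4 lower at an unadjusted p under 0.05 and a median of -0.04. The 4 lower genes were *Emcn*, *Npr3*, *Plvap* and *Eng*, with log2 fold changes of -0.57, -0.46, -0.44 and -0.23, each with overlapping groups. Of 14 smooth muscle and mural cell markers 4 were higher and 4 lower, with a median of 0.01. Among them *Rgs5*, a marker of pericytes, was at 243 ± 22.2 and 362 ± 58.1 CPM (SD, n = 4) and *Myh11*, the myosin of mature smooth muscle, at 2.77 ± 0.861 and 5.16 ± 1.76 CPM (SD, n = 4), and neither overlapped between groups. *Rgs5* was the 1 marker of this list past the adjusted threshold by the edgeR likelihood ratio test (adjusted p = 0.00142). Its adjusted p by DESeq2 was 0.000312. On the lower side *Myocd*, a coactivator of smooth muscle genes, was at 52.9 ± 5.03 and 43.9 ± 4.02 CPM (SD, n = 4) without overlap, while *Abcc9*, a potassium channel subunit of mural cells, was at 60.5 ± 14.3 and 37.9 ± 10.1 CPM (SD, n = 4) with overlap. *Des*, the muscle intermediate filament gene, and *Smtn* had log2 fold changes of -0.40 and -0.19, and *Pdgfrb* and *Kcnj8*, both of mural cells, 0.24 and 0.59. The summed level of this list was 3693 to 4187 CPM in control and 3509 to 4161 CPM in mutant libraries, and its part in the value of *Heyl* was not tested. Of 14 cushion mesenchyme markers 1 was higher and 0 were lower, with a median of 0.07 and summed levels of 7753 to 8444 and 7371 to 9595 CPM. Of 8 measured markers of the second heart field and pharyngeal mesoderm 3 were higher and 0 lower, with a median of 0.22. Among them *Isl1* was at 29.2 ± 3.44 and 46.2 ± 8.79 CPM (SD, n = 4) without overlap. Its log2 fold change was 0.64, with an adjusted limma p of 0.142. The adjusted p of *Isl1* was 0.00142 by the edgeR likelihood ratio test and 0.000619 by DESeq2. The 12 erythroid markers had a median of 0.20 with none past an unadjusted p of 0.05, and their sum ran from 1845 to 3762 and from 1548 to 5767 CPM. In the remaining lists 2 of 9 measured neural crest markers were higher, 1 of 10 epicardial and 2 of 12 macrophage markers were lower, and 0 of 3 measured pharyngeal epithelium markers passed.

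**Figure D4:**
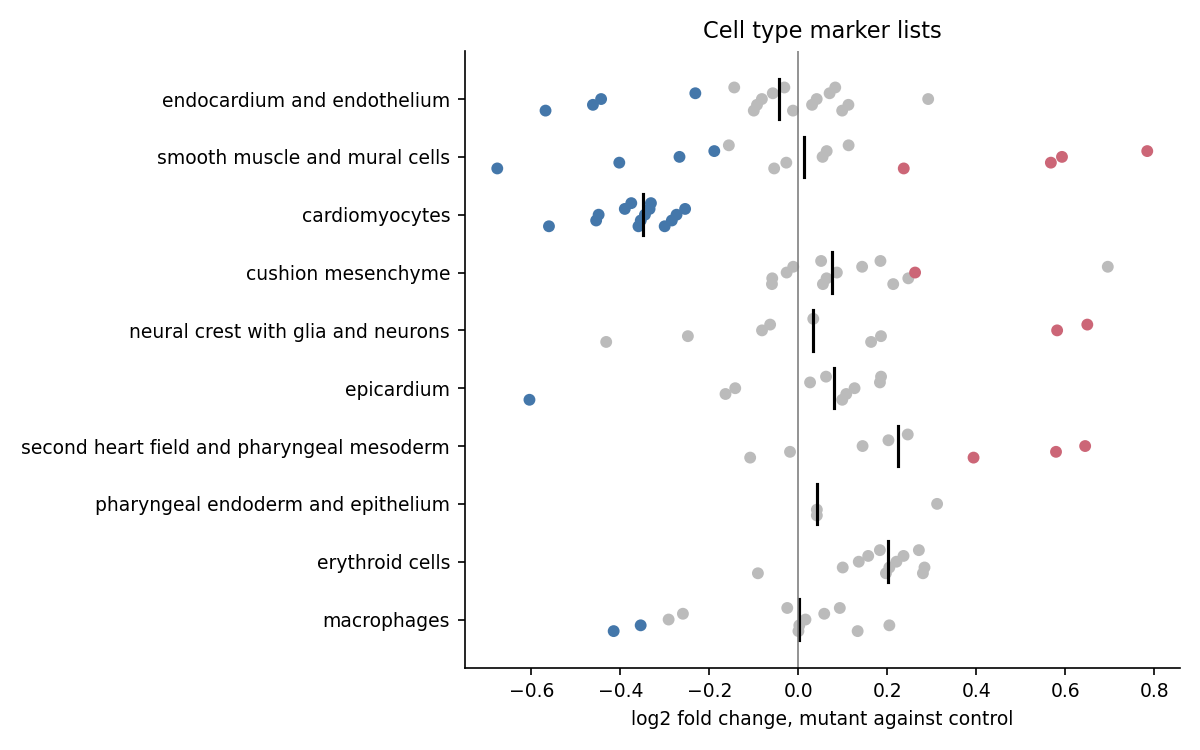
Log2 fold change of mutant against control on the horizontal axis for 10 lists of cell type markers, 1 point per gene and the list median as a black bar, with red and blue for genes higher or lower at an unadjusted limma p under 0.05. All 14 cardiomyocyte markers lie below 0, at a median of -0.35. The medians of the endocardial and cushion lists lie near 0, with 4 blue points and 0 red in the endocardial list and 1 red point in the cushion list.

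The genes whose level followed each of the 5 most closely over the 8 libraries were taken among 11650 candidates averaging 5 CPM or more. This is a description that includes the difference between groups and shared library effects. The closest of so many candidates over 8 libraries can reach a high r by selection alone. For *Heyl* the closest genes were *Sumf2*, *Osr1* and *Rpl9*, with Pearson's r of 0.941, 0.933 and 0.933, and r within groups of 0.881, 0.811 and 0.871. For *Hey1* they were *Bin1*, *Ing1* and *Il2rg* (0.968, 0.939 and 0.937). For *Hey2* they were *Kdm3a*, *Ctss* and *Cox16* (0.993, 0.989 and 0.986), and for *Hes1* they were *Dbn1*, *Men1* and *Ier5* (0.980, 0.978 and 0.974). For *Nrarp* they were *Kctd11*, *Rab34* and *Hmox2* (0.940, 0.923 and 0.923). No gene of the 5 was among the 3 closest to another. Without mutant replicate 2 the r for the genes listed beside *Hey2* and *Hes1* lay between 0.936 and 0.976.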

How the data were processed

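RNA-seq of polyA RNA from E11.5 OFT was analysed in 8 libraries, 4 labelled control and 4 labelled Mib1V943F/+ Gata6STOP/+, grouped by the genotype label. The submitters' processing notes name CASAVA, bcl2fastq, cutadapt, RSEM and edgeR and the build GRCm38. The authors deposited CPM, scaled by the TMM method of edgeR from RSEM counts, so they carry no length correction, and every listed gene reached 1 CPM in at least 4 libraries. The table held 14608 genes, and 0 columns were left out. The kit marks strand, and how strand was used in counting is not given in the sources used here.

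Every value was a whole multiple of a constant of its library within 0.05 of a read, which gave whole reads for 100% of values. The main test was lmFit and eBayes with a trend (limma 3.58.1, R 4.3.3) applied to log2 of CPM plus 0.5. P-values were adjusted over all genes by the method of Benjamini and Hochberg, with a threshold of 0.05. The log2 fold changes are on that scale, which slightly understates changes of low genes. Single values were also tested by a two-sided exact permutation test over 70 relabellings, whose smallest p is 0.0286. It was run in R for genes and ratios and in SciPy 1.17.1 for the shares of the *Hey* genes. Alternatives were pseudocounts of 0.1 and 1, a mean of at least 5 CPM, edgeR 4.0.16 and DESeq2 1.42.0 on the recovered reads, other scalings, a replicate block, each library left out and, chosen after seeing the data, removal of the GC trend and other settings for the ratios. The limma and edgeR quasi-likelihood steps were tested on simulated data, while the edgeR likelihood ratio test and DESeq2 were not. Transcript lengths and coding sequences come from GENCODE M21 on GRCm38 and promoters from RefSeq, where *Hey2* and *Nrarp* were matched and *Hey1*, *Heyl* and *Hes1* were not used here. The coding sequence of *Hey1* is not reported here.

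The 5 genes, the lists of pathway and marker genes and the tests were chosen with earlier results of these data known. Named were the 5 genes and, from each pathway list, up to 4 genes of smallest unadjusted limma p under 0.05. Also named were the 3 genes most correlated with each of the 5, and *Mib1*, *Gata6* and *Notch1*. The marker lists were not treated alike. Every gene of the smooth muscle and mural cell list under 0.05 was named, but only some genes of the other marker lists. Other genes named beside these, such as *Efnb2*, were chosen after their values were seen.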

Additional observations from a re-analysis of the deposited data

Results flagged for a closer look

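Of 84 groups of 4 libraries examined over 42 genes, 6 held 1 library whose gap to its nearest neighbour was large for the range of the group, and chance gives this in about 1 group in 20. Among the 5 NOTCH targets this was *Heyl* in control replicate 1, at 26.3 CPM with the next control at 31.2 CPM, and without it the log2 fold change was 0.28. Among pathway genes *Hdac2* was at 241 CPM in mutant replicate 2, with the next at 205 CPM, and *Itch* was at 105 CPM in the same library, with the next at 81.8 CPM. *Myl4* was at 1216 CPM in control replicate 4, with the next control at 1424 CPM. Among markers *Isl1* was at 59.2 CPM in mutant replicate 1, with the next at 43.4 CPM, and *Npr3* was at 113 CPM in control replicate 1, with the next at 76.6 CPM.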

How the results depend on the processing

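The replicate numbers do not pair the libraries: the correlations of same-numbered libraries were 0.0349, -0.185, 0.0268 and -0.0454, and in none of the 4 was the own number the highest. With the replicate block the adjusted p of *Heyl* was 0.438, that of *Hey1* 0.572, no call of the 5 genes changed, and 4 genes of the 62 in the NOTCH lists had an unadjusted p under 0.05, against 10 without the block and 6 with the GC trend removed. Over all genes these counts were 1304, 1763 and 1656 in that order. At the adjusted threshold limma called 0 genes (1763 at an unadjusted p under 0.05) and the edgeR quasi-likelihood test 0, against 107 by the likelihood ratio test (26 higher, 81 lower) and 194 by DESeq2 (47 higher, 147 lower). *Heyl* passed by DESeq2 alone (log2 fold change 0.35), and its adjusted p ran from 0.0331 to 0.526 over 18 alternatives, with log2 fold changes of 0.28 to 0.42. With the GC trend removed *Hey2* turned to -0.070 and *Hes1* to 0.051. With 1 library left out the ranges were -0.011 to 0.095 for *Hey2*, -0.12 to 0.056 for *Hes1*, 1121 (without control replicate 2) to 2163 genes at an unadjusted p under 0.05, and 3 to 10 of the NOTCH list genes. For the log2 ratios they were 0.19 to 0.33 for *Hey1* over *Hes1*, -0.030 to 0.13 for *Hey1* over *Nrarp*, -0.36 to -0.23 for *Hey2* over *Heyl*, -0.067 to 0.22 for *Hey2* over *Hes1*, 0.29 to 0.51 for *Heyl* over *Hes1*, 0.16 to 0.24 for *Heyl* over *Nrarp* and -0.29 to -0.093 for *Hes1* over *Nrarp*. The causes were not tested. The other 230 values kept their direction and their side of the threshold, or, for counts, stayed within 1.5 times. Depth limits the precision too: at the fewest reads behind a value of *Nrarp*, 280, counting alone gives a CV of 5.98%, beside CVs between libraries of 7.62% in control and 4.85% in mutant.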

Other observations

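The genes of the table within 100 kb of each of the 5 were looked at after the values above were known. Of 4 such genes near *Heyl* on chromosome 4, *Hpcal4*, which encodes a neuronal calcium sensor and ends 38854 bp before *Heyl*, was at 6.32 ± 0.690 CPM in control and 10.8 ± 1.10 CPM in mutant libraries (SD, n = 4). Its groups did not overlap and its log2 fold change was 0.73, with an adjusted limma p of 0.124. *Ppie*, 93604 bp away, also did not overlap, with 25.3 ± 1.30 and 29.6 ± 0.969 CPM (SD, n = 4) and a log2 fold change of 0.23, with an adjusted limma p of 0.304. *Pabpc4*, on the other side at 12475 bp, had a log2 fold change of -0.20, with an adjusted limma p of 0.371, and *Macf1* one of -0.09. Near *Nrarp* 9 genes were measured, with log2 fold changes from -0.15 to 0.01. *Ncoa7*, 29032 bp from *Hey2*, had 0.20, and *4632428C04Rik*, 42953 bp from *Hes1*, had 0.05, both with overlapping groups.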
